A study of Homo sapiens with 6 samples.

Results

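The messenger RNAs of 10 genes that serve protein folding in the endoplasmic reticulum (ER) were examined: the chaperones and folding enzymes *HSPA5*, *HSP90B1*, *CALR* and *PDIA4*, the cochaperones *DNAJB9* and *SDF2L1*, the degradation factors *HERPUD1* and *EDEM1*, and the unfolded protein sensors *ERN1* and *ATF6*. They were found by gene symbol in the table of normalized values and make up 10 of its 22807 genes. RNA had been sequenced from MDA-MB-453, an established HER2+ breast cancer cell line, in 3 libraries labelled DUSP6 Knockdown and 3 labelled Scrambled, the control. *DUSP6* encodes a phosphatase of ERK kinases. Per the study's methods, all cells were transiently transfected with siRNA using the RNAiMAX reagent. Per the labels, both groups grew in RPMI with serum and antibiotics, and no other drug is listed. The study used 3 different *DUSP6* siRNAs and 3 different scrambled siRNAs. The sources used here do not assign the siRNAs to libraries, so the spread within a group may include differences between siRNAs, and p-values describe only the spread between these libraries.

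The ER folds secreted and membrane proteins, and unfolded protein in its lumen activates the unfolded protein response. BiP, the product of *HSPA5*, binds unfolded chains and also the sensors IRE1 (encoded by *ERN1*), PERK (encoded by *EIF2AK3*) and ATF6. IRE1 splices the mRNA of the transcription factor XBP1, ATF6 is cut by proteases and moves to the nucleus, and PERK slows translation and favours the factor ATF4; together they raise chaperones and the machinery of ER-associated degradation (ERAD), which returns misfolded proteins to the cytosol for the proteasome. The values here are gene totals, so splicing of XBP1, cutting of ATF6 and phosphorylation of the sensors were not measured.

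Recovered reads ranged from 45546981 to 85729785 per library, and 1 read corresponded to a value of 0.0121 to 0.0202. *DUSP6* stood at 110 to 209 in the scrambled libraries and at 24.5 to 39.4 in the knockdown libraries, a log2 fold change of -2.05 (standard error, SE, 0.25). Of the markers of the labelled luminal line, *ERBB2*, *KRT8*, *KRT18* and *EPCAM* had means of 268 to 984 in the scrambled group. *ERBB2* (984 to 495), *KRT8* (611 to 448) and *KRT18* (479 to 335) fell after knockdown, and their part in the ER results was not tested. *COL1A2*, *PDGFRB*, *PTPRC*, *PECAM1*, *VWF* and *JCHAIN*, markers of fibroblasts, leukocytes, endothelium and plasma cells, were at most 0.268 in every library. Outside that pattern, *COL1A1* rose from 92.2 to 173, and *MZB1*, itself an ER cochaperone of plasma cells, fell from 33.1 to 20.8. The 10 most abundant genes of each library took 16.9% and 16.4% of the reads in scrambled replicates 1 and 2 and 10.4% to 10.9% in scrambled replicate 3 and the knockdown libraries, and the part of this difference in the results below was not tested.

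Chaperone genes are known for a promoter motif, the ER stress response element (ERSE), which joins a site of the factor NF-Y to a site of ATF6 and XBP1. Promoter windows from 250 bases before to 50 bases after the gene start were taken from RefSeq on GRCh38.p14 for all 10 genes and searched on both strands for 4 exact motifs. ERSE was CCAAT, 9 bases of any kind and CCACG; ERSE-II was ATTGG, 1 base and CCACG; the core of the unfolded protein response element was TGACGTGG; and the ATF4 site was TTGCATCA. The matched stretches are shown so that each can be set beside the values of its gene. Capitals mark the matched letters, and on the opposite strand ERSE reads CGTGG, 9 bases and ATTGG, and ERSE-II reads CGTGG, 1 base and CCAAT.

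The stretch of *HSPA5* lies at chr9:125241376-125241424 on the minus strand and holds an ERSE from 66 to 48 bases before the gene start. The others lie on the plus strand: *HSP90B1* at chr12:103930201-103930354 with an ERSE and, nearer the start, another on the opposite strand, *CALR* at chr19:12938369-12938417 with an ERSE on the opposite strand, *SDF2L1* at chr22:21642099-21642139 with an ERSE-II on the opposite strand, and *HERPUD1* at chr16:56931951-56932050 with an ATF4 site followed by an ERSE-II.
HSPA5: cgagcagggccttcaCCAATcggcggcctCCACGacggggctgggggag
HSP90B1: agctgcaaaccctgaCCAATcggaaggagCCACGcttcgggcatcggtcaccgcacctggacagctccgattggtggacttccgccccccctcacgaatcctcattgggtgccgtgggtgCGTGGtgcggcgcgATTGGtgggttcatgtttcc
CALR: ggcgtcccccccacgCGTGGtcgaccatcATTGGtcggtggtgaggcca
SDF2L1: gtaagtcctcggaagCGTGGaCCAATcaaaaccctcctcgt
HERPUD1: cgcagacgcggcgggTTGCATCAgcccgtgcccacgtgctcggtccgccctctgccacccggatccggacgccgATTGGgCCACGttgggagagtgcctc

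The windows of *PDIA4*, *DNAJB9*, *EDEM1*, *ERN1* and *ATF6* held none of these exact strings, and no window of the 10 held the TGACGTGG core. Among all 35116 windows, ERSE was found in 27 (0.0769%), ERSE-II in 19 (0.0541%), the TGACGTGG core in 256 (0.729%) and the ATF4 site in 304 (0.866%). A match describes the letters of the window and does not show binding in these cells.

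**Figure D1:**
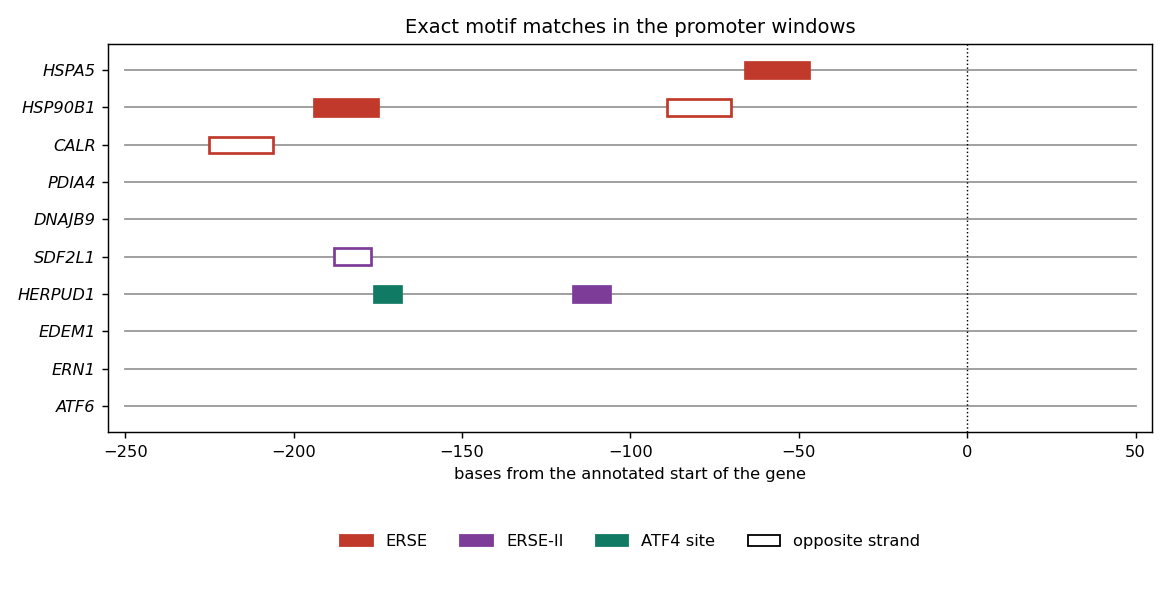
Exact motif matches in the promoter windows of the 10 genes, with distance from the annotated gene start in bases on the x axis and 1 gene per line. Filled boxes are matches on the strand of the gene and open boxes on the opposite strand, and the ERSE of *HSPA5*, from -66 to -48, is the match nearest a gene start.

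Expressed per kilobase of the MANE Select transcript, so that genes of different length can be set side by side, the 10 genes covered a wide range in the scrambled libraries. *CALR* averaged 499 ± 30.1 (SD, n = 3), *HSP90B1* 350 ± 23.9 and *HSPA5* 321 ± 9.53 normalized value per kilobase, and their ranges did not meet, although *HSP90B1* (335 to 378) and *HSPA5* (313 to 332) were close. *HERPUD1* (40.5 to 56.0), *PDIA4* (26.6 to 55.2) and *SDF2L1* (33.6 to 47.9) overlapped and could not be put in order. *EDEM1* (16.2 to 21.0), *ATF6* (12.1 to 13.9), *DNAJB9* (6.94 to 11.6) and *ERN1* (3.94 to 4.22) followed without overlap. In the knockdown libraries the order was less clear at the top, since *CALR* (406 to 446), *HSP90B1* (386 to 454) and *HSPA5* (295 to 439) now overlapped. At the lower end *DNAJB9* (14.3 to 17.6) now lay above *ATF6* (10.8 to 11.7). These are levels per kilobase of 1 transcript per gene, and other isoforms were not considered.

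The comparison of knockdown and scrambled libraries asked how the folding machinery of these HER2+ cells stood when *DUSP6* was depleted. *DNAJB9*, *HERPUD1* and *EDEM1* rose, by 1.48-fold to 1.69-fold in the ratio of means, and none of the 10 genes passed the test in the other direction. The other 7, with the most abundant chaperones and both sensors among them, did not pass. In limma on log2(value + 1) with Benjamini-Hochberg adjustment over 12862 genes, 3 of the 10 were thus higher, beside 19.7% of all genes tested, and 0 were lower, beside 24.7% of all genes tested. Under quantile normalization 7 of the 10 were higher and 0 lower, with *HSPA5*, *HSP90B1*, *PDIA4* and *ERN1* added. That setting called 2958 of all 12862 genes higher and 2887 lower, beside 2540 and 3179 in the fit above. The median log2 fold change was 0.25 over the 10 genes and -0.01 over all genes tested. All knockdown libraries lay above all scrambled libraries for 6 of the 10, beside 26.7% of all genes tested, below them for 2 (*CALR* and *ATF6*), beside 31.1%, and the groups overlapped for 2 (*HSPA5* and *SDF2L1*). With 3 libraries a group, a two-sided exact permutation test of 1 gene cannot give a p below 0.1. In bulk RNA, fewer cells that express a gene and less of its RNA per cell cannot be told apart.

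**Figure D2:**
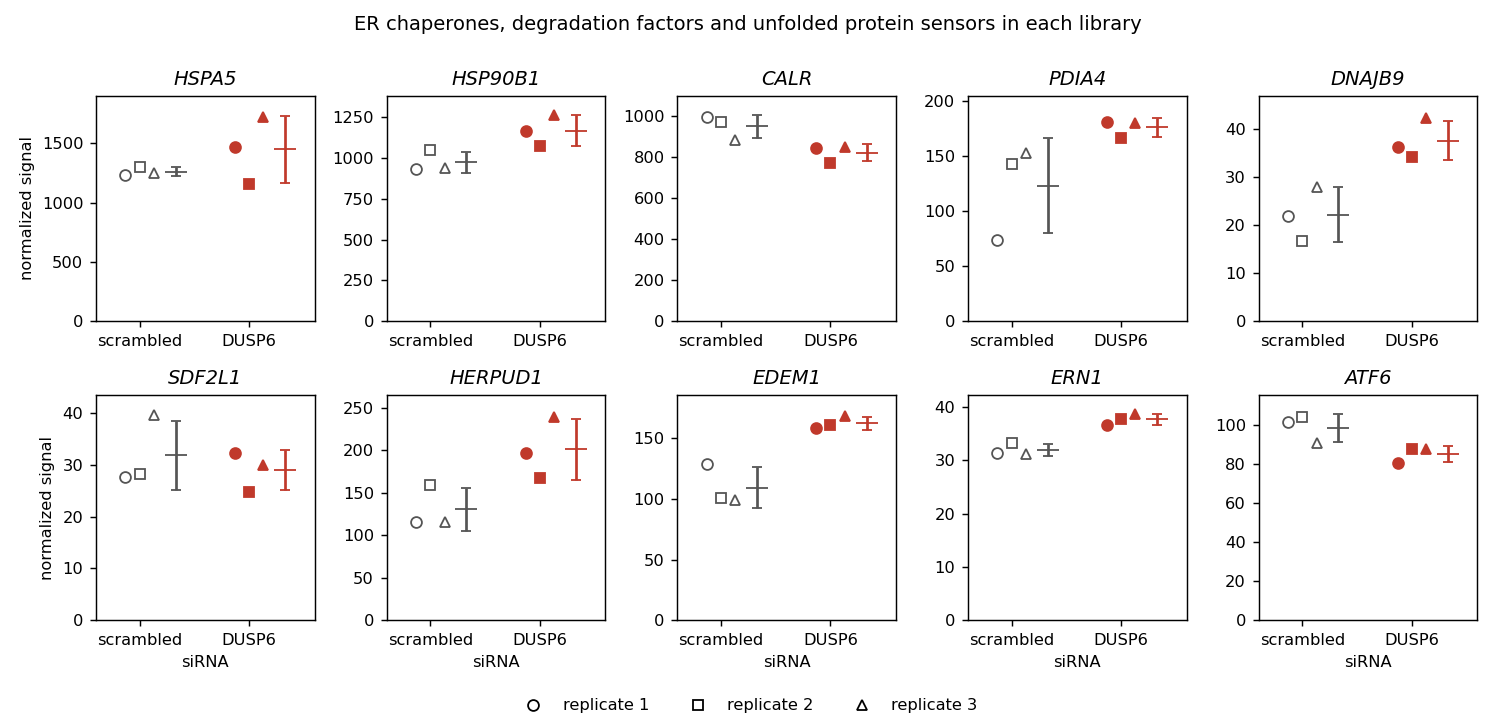
Normalized signal of each of the 10 genes (y axis, linear from 0) in the scrambled (grey, open) and *DUSP6* knockdown (red, filled) libraries, with 1 symbol per replicate number and the mean ± SD (n = 3) beside each group. Knockdown values lie above all scrambled ones for 6 genes, the called *DNAJB9*, *HERPUD1* and *EDEM1* among them, and below for *CALR* and *ATF6*. The knockdown values of *HSPA5* range from 1157 to 1721 around the narrow scrambled group.

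*HSPA5* (Entrez gene 3309, chr9:125234853-125241343, minus strand) encodes BiP, the main Hsp70 chaperone of the ER. Its normalized value was 1229, 1301 and 1247 in scrambled replicates 1, 2 and 3 and 1470, 1157 and 1721 in the knockdown replicates in that order. Knockdown replicate 2 fell below every scrambled library and the other two lay above all of them. The log2 fold change was 0.18 with a 95% interval from -0.14 to 0.51, so a rise of up to that size was not resolved (limma adjusted p = 0.321). It went from 0.05 without knockdown replicate 3 to 0.34 without knockdown replicate 2, and quantile normalization gave 0.49 (limma adjusted p = 0.00581).

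*HSP90B1* (Entrez gene 7184, chr12:103930410-103947926, plus strand) encodes GRP94, the Hsp90 of the ER lumen, which matures integrins and Toll-like receptors. It read 933, 1051 and 940 in the scrambled libraries and 1166, 1073 and 1264 after knockdown. The groups did not overlap, but knockdown replicate 2 exceeded scrambled replicate 2 by little. Its log2 fold change of 0.26 (SE 0.11, 95% interval 0.02 to 0.50) did not pass after adjustment (limma adjusted p = 0.0730). It passed without scrambled replicate 2 (0.32, limma adjusted p = 0.0478) and under quantile normalization (0.48, limma adjusted p = 0.00741). *HSP90B2P*, a pseudogene copy close to it in sequence, read 84.4 to 89.9 in the scrambled and 115 to 124 in the knockdown libraries, so the split of reads between them makes the value of *HSP90B1* uncertain.

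*CALR* (Entrez gene 811, chr19:12938609-12944489, plus strand) encodes calreticulin, the lectin chaperone that holds glycoproteins during folding and stores calcium. Its values were 993, 970 and 884 in the scrambled libraries and 844, 773 and 847 after knockdown. All knockdown libraries lay below all scrambled ones, opposite in direction to *HSP90B1*. This amounted to -0.21 on the log2 scale (SE 0.10, 95% interval -0.43 to 0.01, limma adjusted p = 0.109). Without scrambled replicate 3 it was -0.26 (limma adjusted p = 0.0244), and quantile normalization left 0.01 (limma adjusted p = 0.941) and thus turned the direction.

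*PDIA4* (Entrez gene 9601, chr7:149003051-149028505, minus strand) encodes ERp72, a protein disulfide isomerase. It stood at 73.5, 142 and 153 in the scrambled libraries and at 181, 166 and 180 after knockdown. Scrambled replicate 1 lay far below the other two, while the knockdown libraries were close together. On the log2 scale the difference of 0.58 (SE 0.24, 95% interval 0.05 to 1.12, limma adjusted p = 0.0719) was as large as that of *EDEM1* but with a wider error. It shrank to 0.25 without scrambled replicate 1 (limma adjusted p = 0.0566), passed at 0.77 without scrambled replicate 3 (limma adjusted p = 0.0242), and passed at 0.73 under quantile normalization (limma adjusted p = 0.0340).

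Of the cochaperones, *DNAJB9* (Entrez gene 4189, chr7:108569874-108574850, plus strand) encodes ERdj4, a J-domain protein that directs BiP to misfolded substrates and to IRE1. With all 6 libraries it had the largest fold change of the 10 genes. Its value was 21.9, 16.7 and 28.0 in the scrambled libraries and 36.4, 34.3 and 42.3 after knockdown. Every knockdown library exceeded every scrambled library. The mean rose from 22.2 ± 5.66 to 37.7 ± 4.12 (SD, n = 3 each), which is 0.76 ± 0.17 (SE) on the log2 scale (limma adjusted p = 0.00704). The call held in each of the 6 fits that left out 1 library, with fold changes of 0.58 to 0.93 on the log2 scale. As the gene of the 10 with the fewest reads it still had at least 873 per library.

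*SDF2L1* (Entrez gene 23753, chr22:21642302-21644299, plus strand) encodes a lumenal partner of the BiP cochaperone ERdj3. It was at 27.7, 28.2 and 39.5 in the scrambled libraries and at 32.2, 24.7 and 30.0 after knockdown. The groups overlapped, and the highest value of all 6 was that of scrambled replicate 3. A log2 fold change of -0.12 resulted (95% interval -0.47 to 0.24, limma adjusted p = 0.559), and 0.04 without scrambled replicate 3.

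Both genes of the degradation pathway rose. *HERPUD1* (Entrez gene 9709, chr16:56932142-56944864, plus strand) encodes Herp, a membrane protein of the HRD1 ubiquitin ligase complex that carries ERAD. It read 116, 160 and 116 in the scrambled libraries and 197, 168 and 239 after knockdown. The groups did not overlap, with knockdown replicate 2 just above scrambled replicate 2. The mean went from 130 ± 25.3 to 201 ± 35.9 (SD, n = 3 each), or 0.62 ± 0.16 (SE) on the log2 scale (limma adjusted p = 0.0128). Without knockdown replicate 3 it was 0.49 and no longer passed (limma adjusted p = 0.0527).

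*EDEM1* (Entrez gene 9695, chr3:5187707-5219958, plus strand) encodes a mannosidase-like lectin that marks misfolded glycoproteins for ERAD. Its values were 128, 101 and 98.8 in the scrambled libraries and 158, 160 and 168 after knockdown. The knockdown libraries differed little from each other and all lay above the scrambled group. The mean rose from 109 ± 16.5 to 162 ± 5.29 (SD, n = 3 each), or 0.57 ± 0.11 (SE) on the log2 scale, with the smallest adjusted p of the 10 (limma adjusted p = 0.00341). It remained called in each of the 6 fits that left out 1 library (0.51 to 0.69).

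Neither sensor passed the test, and their fold changes had opposite signs. *ERN1* (Entrez gene 2081, chr17:64039142-64130144, minus strand) encodes IRE1, the kinase and endoribonuclease that splices *XBP1* mRNA. It stood at 31.4, 33.3 and 31.1 in the scrambled libraries and at 36.5, 37.8 and 38.7 after knockdown, with no overlap and a narrow spread in both groups. Its log2 fold change of 0.23 (SE 0.09, 95% interval 0.03 to 0.43) was close to the threshold (limma adjusted p = 0.0593). It passed without scrambled replicate 2 (limma adjusted p = 0.0456), with all genes tested instead of those above the minimum (limma adjusted p = 0.0488), and under quantile normalization (0.29, limma adjusted p = 0.0278).

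*ATF6* (Entrez gene 22926, chr1:161766320-161964070, plus strand) encodes the membrane-bound transcription factor. Its values were 102, 104 and 90.7 in the scrambled libraries and 80.4, 87.8 and 87.8 after knockdown. All knockdown libraries were lower than all scrambled ones, by a small margin from scrambled replicate 3. On the log2 scale the difference was -0.21 (SE 0.09, limma adjusted p = 0.0948), and -0.27 without scrambled replicate 3 (limma adjusted p = 0.0239). It was -0.10 under quantile normalization (limma adjusted p = 0.390). Fold changes of the size seen in *DNAJB9*, in either direction, lay outside the 95% intervals of both sensors.

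Across the 10 genes the knockdown libraries had a common order: replicate 3 was the highest of its group for 8 of 10 and replicate 2 the lowest for 7 of 10. Over 100 other ER genes described below, replicate 3 was the highest for 55 and replicate 2 the lowest for 49. The scrambled libraries had no such leader among the 10 genes, with replicate 1 the lowest for 5 and replicate 2 the highest for 5. The median coefficient of variation over the 10 genes was 11.1% in the scrambled and 6.66% in the knockdown group. The choice of scaling mattered most for abundant genes. Quantile normalization raised the log2 fold change of genes with mean values of 500 to 2000, the range of *HSPA5*, *HSP90B1* and *CALR*, by a median of 0.24, and that of genes at 10 to 100 by 0.05. *DNAJB9*, *HERPUD1* and *EDEM1* were called under all 8 alternatives that kept the 6 libraries, that of edgeR (quasi-likelihood, recovered reads) included.

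**Figure D3:**
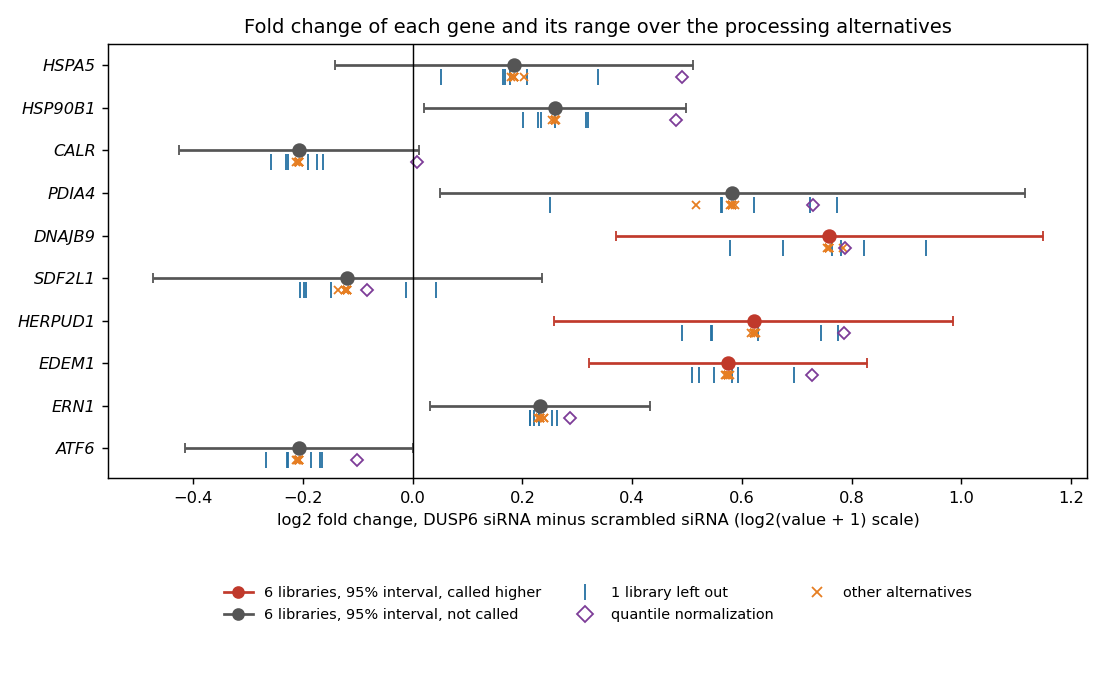
Log2 fold change of each of the 10 genes, *DUSP6* siRNA minus scrambled siRNA, on the log2(value + 1) scale. Dots and bars are the estimate from 6 libraries and its 95% interval (red where called higher), blue ticks leave out 1 library, open diamonds are quantile normalization and crosses the other alternatives. The diamonds of *HSPA5* (0.49) and *HSP90B1* (0.48) lie far to the right of their dots, and every mark of *DNAJB9*, *HERPUD1* and *EDEM1* lies at or above 0.49.

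The rest of the ER folding and stress machinery was followed in 7 lists with 102 further genes, of which 100 passed the minimum mean value of 1. Together 26 were higher, 14 lower and 60 not called, beside 19.7% higher and 24.7% lower of all genes tested, with a median log2 fold change of 0.09. The counts of the lists below stand beside the same shares, and differences between lists were not tested. Under quantile normalization 42 were higher and 8 lower, beside 2958 and 2887 of all 12862 genes. Without knockdown replicate 3 the higher genes numbered 16, while those among all genes went from 2540 to 1686. Over the 6 fits that left out 1 library, all genes called higher numbered 1535 to 3213 and lower 2309 to 3578. List counts from those fits stand beside these. *TXNDC5* and *FKBP7* were below the minimum, with means of 0.208 and 0.290 in the scrambled and 0.568 and 1.01 in the knockdown libraries.

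Of 20 further ERAD genes, 8 were higher and 1 lower, with a median log2 fold change of 0.32. *EDEM2*, a mannosidase that starts glycan trimming, rose from 22.7 to 36.5 (log2 fold change 0.67), the retrotranslocation channel gene *DERL2* from 15.6 to 24.1 (0.60), and *SYVN1*, which encodes the ubiquitin ligase HRD1 itself, from 87.5 to 125 (0.50). *SEL1L* and *DERL1*, looked at after their values were seen, had log2 fold changes of 0.49 and 0.46 without passing. Both passed under quantile normalization (0.73, limma adjusted p = 0.0194, and 0.61, limma adjusted p = 0.0234). With the replicate number as a block both passed too (limma adjusted p = 0.0193 and 0.0160). They also passed without scrambled replicate 2 (limma adjusted p = 0.0299 and 0.0404), and *DERL1* without scrambled replicate 3 (limma adjusted p = 0.0319). Neither passed without scrambled replicate 1 or without any 1 of the knockdown libraries. Like *PDIA4*, both had a low value in scrambled replicate 1, at 176 against 336 and 299 for *SEL1L* and 83.6 against 138 and 136 for *DERL1*, of whose exon sequence 10.4% lies under exons of *TBC1D31*. The count of higher ERAD genes was 5 without knockdown replicate 2 or 3 and 12 under quantile normalization.

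Among sensors and their nearest partners 1 of 9 was higher and 3 were lower, with a median of 0.14. *XBP1*, the substrate of IRE1, fell from 1653 ± 52.5 to 1014 ± 103 (SD, n = 3 each), -0.71 on the log2 scale (limma adjusted p = 9.82e-04), beside 0.23 for *ERN1*. *WFS1*, whose product restrains ATF6, fell from 67.4 to 30.4 (-1.11), and *TRAF2*, an adaptor of active IRE1, from 59.0 to 45.0 (-0.38). *ERN2*, the IRE1 of mucous epithelia, rose from 4.73 to 7.10 (0.51). *EIF2AK3* (PERK) had 0.26 (limma adjusted p = 0.0586) and *ATF6B* -0.02, and neither passed. The call of *TRAF2* was lost without any 1 of the knockdown libraries (limma adjusted p = 0.0608 to 0.117) and under quantile normalization, that of *ERN2* without knockdown replicate 3 (limma adjusted p = 0.0558), and *EIF2AK3* passed without scrambled replicate 2 (limma adjusted p = 0.0427) and under quantile normalization (0.34, limma adjusted p = 0.0252). Quantile normalization gave 3 higher and 2 lower genes in this list, the third higher gene being *MBTPS1*, named after its values were seen.

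Chaperones and cochaperones outside the 10 were divided, with 4 of 13 higher and 4 lower (median 0.14). *CNPY2* (0.63), *SIL1*, the nucleotide exchange factor of BiP (0.56), and *SDF2*, the constitutive relative of *SDF2L1* (0.55), rose. *SEC63* (-0.42), *DNAJB11*, which encodes ERdj3 (-0.41), and *DNAJC10*, which encodes the disulfide reductase ERdj5 (-0.34), fell. BiP's J-domain partners were thus called in both directions, *DNAJB9* higher and *DNAJB11*, *DNAJC10* and *SEC63* lower, and *DNAJC3* was not called (0.22, limma adjusted p = 0.260). *HYOU1*, the large Hsp70 relative that recharges BiP, was at 491 ± 31.4 and 502 ± 47.4 (SD, n = 3 each). Under quantile normalization *SEC63* (-0.26), *DNAJB11* (-0.26) and *DNAJC10* (-0.06) did not pass, 7 genes of this list were higher and 0 lower, and *HYOU1* passed at 0.27 (limma adjusted p = 0.0376). The call of *DNAJC10* was also lost without knockdown replicate 1 (limma adjusted p = 0.0561) and that of *DNAJB11* without knockdown replicate 2 (limma adjusted p = 0.0595), and lower genes of the list numbered 2 in each of these fits.

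Of 15 disulfide and proline folding enzymes, 1 was higher and 2 lower (median -0.02): *ERO1B*, an oxidase that recharges disulfide isomerases, rose from 4.05 to 8.68 (0.94), and *QSOX1* (-0.47) and *TXNDC11* (-0.41) fell. Of 18 genes of translocation and signal peptide processing, 5 were higher and 2 lower (median -0.02). *SRPRA*, the receptor of the signal recognition particle, rose from 136 to 256 (0.94), followed by *SEC61B* (0.42) and *SEC11A* (0.35), and *SRP72* (-0.51) and *SSR1* (-0.34) fell. Of 15 genes of glycosylation, *MOGS* (0.48) and *RPN1* (0.27) were higher and *UAP1* lower (-0.74), with a median of 0.01. Under quantile normalization 6 genes of glycosylation were higher, and 3 disulfide and proline enzymes, with *PDIA3* and *PDIA6* added, which are named after their values were seen and share exon sequence with neighbouring genes.

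Several of these calls were lost in fits that left out 1 library. *MOGS* and *SEC61B* were lost in 5 of the 6 fits that left out 1 library, all but that without scrambled replicate 3 (limma adjusted p = 0.0598 to 0.0688 and 0.0603 to 0.0784). *RPN1* was lost without scrambled replicate 1 or any 1 knockdown library (limma adjusted p = 0.0573 to 0.104), *SEC11A* without any 1 knockdown library (limma adjusted p = 0.0528 to 0.0594), and *SSR1* without knockdown replicate 1 (limma adjusted p = 0.0528). *SSR1* also did not pass under quantile normalization. Higher genes of translocation numbered 1 without any 1 knockdown library 2 without scrambled replicate 1 and 3 without scrambled replicate 2, and lower disulfide and proline enzymes numbered 5 without scrambled replicate 3.

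In the PERK and ATF4 arm 5 of 10 genes were higher and 1 lower, with a median of 0.53, the largest median of the 7 lists. *ATF3* rose from 33.6 ± 2.11 to 90.4 ± 22.2 (SD, n = 3 each; 1.37), *SESN2* from 42.6 to 92.9 (1.14), *ASNS*, an asparagine synthesis gene, from 33.3 to 54.5 (0.71), and *DDIT3*, which encodes the factor CHOP, from 41.8 to 65.5 (0.63, limma adjusted p = 0.00423). Exons of *MARS1* cover 24.3% of those of *DDIT3*, so its value is uncertain. *NUPR1* fell from 174 to 98.4 (-0.82). *ATF4* mRNA was at 629 ± 17.6 and 599 ± 59.0 (-0.07, limma adjusted p = 0.575), and its protein, which is mainly set by translation, was not measured.

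**Figure D4:**
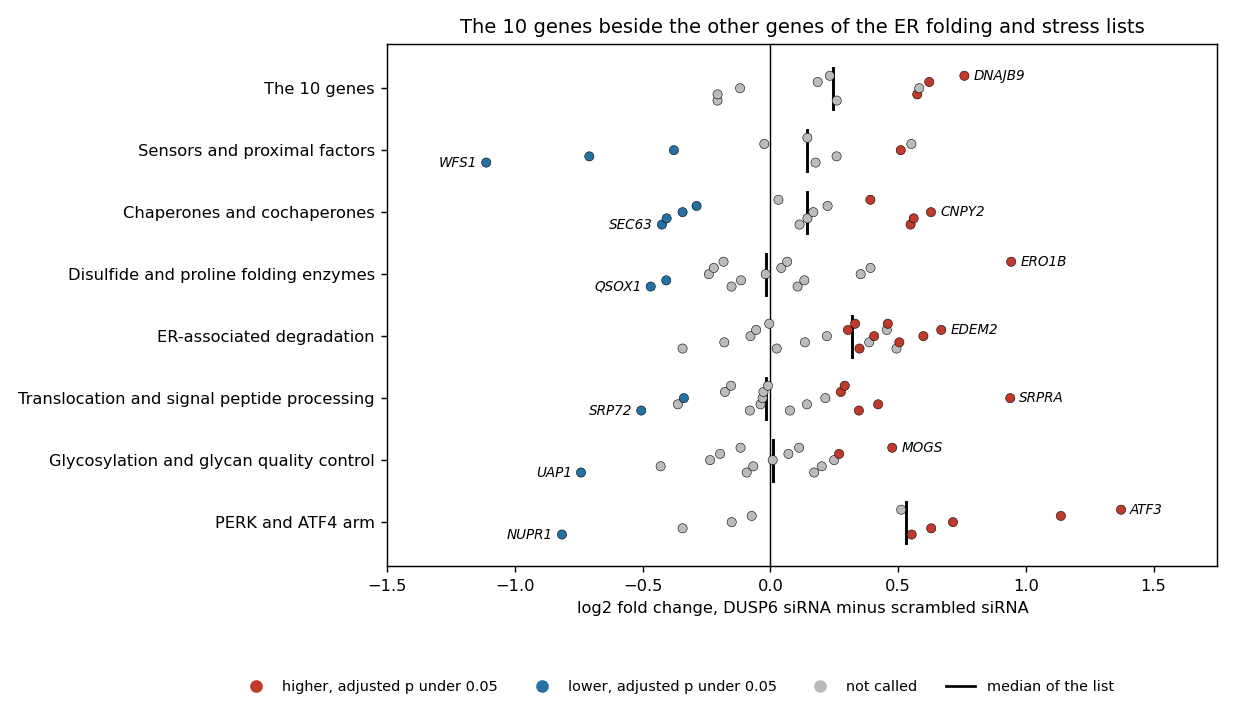
Log2 fold change of each gene tested, *DUSP6* siRNA minus scrambled siRNA, for the 10 genes and the 7 other lists, with 1 dot per gene (red higher, blue lower, grey not called) and a black bar at each list's median. Medians of the PERK and ATF4 arm (0.53) and of ERAD (0.32) lie farthest to the right, and the extreme called genes of the lists are named. Of the 100 other genes, 1 is left out of the plot.

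Set beside the promoter motifs, 3 of the 10 genes held an exact ERSE, the chaperone genes *HSPA5*, *HSP90B1* and *CALR*, and 0 of these were called. Of the 98 genes with a promoter window among the 10 and the 7 lists, 8 held an ERSE. *CRELD2* and *ERO1B* among them were higher, *XBP1* was lower, and *HSPA5*, *HSP90B1*, *CALR*, *CANX* and *PDIA6* were not called. All counts of this paragraph stand beside 19.7% higher and 24.7% lower of all genes tested. They are small, and a link of motif to call was not tested. Of these 5 uncalled genes, all but *CALR* passed as higher under quantile normalization, which called 2958 of all 12862 genes higher. Of the called genes among the 10, *HERPUD1* held an ERSE-II and an ATF4 site, and *DNAJB9* and *EDEM1* held no match of the 4 motifs. *SDF2L1*, with an ERSE-II too, was not called. Over the 98 genes, ERSE-II was held by 3 (1 higher, 2 not called) and the ATF4 site by 2 (2 higher). The TGACGTGG core was held by 9 (1 higher, 2 lower, 5 not called, and *TXNDC5* not tested). *CRELD2*, *CANX* and *PDIA6* are named here for their motif, and the value of *PDIA6* is uncertain since *ATP6V1C2* shares 45.3% of its exon sequence.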

How the data were processed

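RNA of 6 MDA-MB-453 libraries (3 Scrambled, 3 DUSP6 Knockdown, per the labels) was sequenced with a stranded mRNA kit. The authors aligned reads to hg38 and assigned them to RefSeq genes with Rsubread at default settings, and deposited linear normalized signal values for each gene in each library; per the labels, edgeR was among their tools. Dividing each deposited signal by a constant of its library gave whole reads (100% within 0.01 reads), which were used as recovered reads. The files do not state the scaling. Beyond total recovered reads, the values were divided by a further factor per library. It was 0.881, 0.923 and 0.968 in scrambled replicates 1, 2 and 3 and 1.086, 1.081 and 1.082 in knockdown replicates. This factor lowers knockdown against scrambled values for every gene. Scaling by total reads alone was not tested. The signs and missing calls of *HSPA5*, *HSP90B1*, *CALR*, *ERN1* and *ATF6*, with small fold changes, are therefore conditional on it.

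Values were taken as log2(value + 1), which understates changes of low genes. The 12862 genes with a mean of at least 1 entered limma (3.58.1, R 4.3.3; lmFit, eBayes with trend, group only), with calls at a Benjamini-Hochberg adjusted p under 0.05; limma and edgeR 4.0.16 were tested on simulated data. The 10 genes and the 7 lists were chosen with earlier results of these data known. Named were the 10 genes, *DUSP6*, up to 3 called genes with the largest and up to 3 with the smallest fold change per list, and *XBP1*, *EIF2AK3*, *ATF6B*, *HYOU1*, *DNAJB11*, *DNAJC3*, *ATF4* and *DDIT3*. Gene positions and promoter windows came from RefSeq (GRCh38.p14) and transcript lengths from GENCODE (MANE Select). No exon of another counted gene overlapped those of the 10 genes' MANE Select transcripts (0%). Also tried were no filter, a pseudocount of 0.1, a minimum mean of 10, median-of-ratios and quantile scaling, a replicate block, eBayes without trend, edgeR (quasi-likelihood) on recovered reads, and leaving out each library. Protein sequences were not used here, and the single values of 2 genes are not reported here. Depth set a small counting error for the 10 genes, with at least 873 reads each, and the spread between libraries set the precision.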

Additional observations from a re-analysis of the deposited data

How the results depend on the processing

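With 3 libraries a group, leaving out 1 gave 2 to 5 of the 10 genes higher (3 with all 6 libraries), 0 to 2 lower (0), 16 to 31 of the 100 other genes higher (26) and 10 to 19 lower (14). Over all genes tested, these fits called 1535 to 3213 higher (2540) and 2309 to 3578 lower (3179). Quantile normalization gave 7 of the 10 genes higher, *HSPA5*, *HSP90B1*, *PDIA4* and *ERN1* joining the 3, and 42 of the other genes higher and 8 lower, with *CALR* at 0.00799 on the log2 scale. Among all genes it called 2958 higher and 2887 lower. Without scrambled replicate 3 *SDF2L1* was at 0.0427, in a range of -0.206 to 0.0427 over the libraries left out. The cause was not tested. Same-numbered libraries did not deviate together (r = 0.005, 0.087 and -0.076 across genes for numbers 1, 2 and 3). These values gave no sign of pairing by number, and they cannot show that it was absent. The replicate block gave 4 of the 10 genes higher, adding *PDIA4* (limma adjusted p = 0.0221). *DUSP6*, *DNAJB9* and *EDEM1* kept direction and call under all 14 alternatives, and *HERPUD1* under 13. Depth was not limiting for the 10 genes.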
